A study of Mus musculus with 24 samples.

Results

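The genes described here are 6 SOX transcription factors measured in the mouse mammary gland, Sox4, Sox9, Sox10, Sox11, Sox17 and Sox18. They were chosen by gene symbol, 6 of 18193 genes that have a probe set with a single symbol on the array, and the probe set with the highest mean log2 intensity over all 24 arrays stood for each. Of the 6, 5 passed the filter on low values (above the array median on at least 3 of 24 arrays) and were tested among 12352 genes. Sox11 did not pass and is given by its values. The study treated nulliparous BALB/c females whose ovaries had been removed at 6 weeks of age and who had rested for 2 weeks. They received 1 mg of progesterone in 100 µl of sesame oil under the skin each day, or the oil alone. Glands were taken 4, 16, 28 or 76 h after the first injection, so that the 28 h and 76 h mice would have had more than 1 injection, and the hours, the number of injections and the time since the last one cannot be told apart. Each of the 8 groups holds 3 arrays, and every array carries RNA pooled from 5 mice, so that a p-value measures the spread between pools and not between single mice. All groups share the loss of the ovaries, and no gene was altered.

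SOX proteins bind the minor groove of DNA through an HMG box, a domain related to that of the sex-determining factor Sry, and bend it, mostly together with partner factors. They fall into groups by sequence: Sox4 and Sox11 belong to group C, Sox9 and Sox10 to group E, and Sox17 and Sox18 to group F. Sox9 is known for its part in mammary stem and luminal progenitor cells, Sox10 for mammary progenitor-like cells as well as for Schwann cells and other neural crest derivatives, and Sox4 for progenitors of many epithelia and of lymphocytes. Sox11 is best known from developing neurons. Sox17 and Sox18 are known from the endothelium of arteries and of developing lymphatic vessels.

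The promoters of Sox4 and Sox11 are shown because windows were at hand for these 2 members only. They were not chosen for their response to progesterone. RefSeq promoter windows on build GRCm38.p6 (250 bases before the start site to 50 after it) were matched by symbol for 2 of the 6 genes. The Sox4 window is chr13:28953650-28953949 on the minus strand and the Sox11 window chr12:27342669-27342968 on the minus strand. Capitals mark CCAAT on either strand (ATTGG on the printed strand where the motif lies on the other), the letters of the CCAAT box bound by the factor NF-Y.
Sox4: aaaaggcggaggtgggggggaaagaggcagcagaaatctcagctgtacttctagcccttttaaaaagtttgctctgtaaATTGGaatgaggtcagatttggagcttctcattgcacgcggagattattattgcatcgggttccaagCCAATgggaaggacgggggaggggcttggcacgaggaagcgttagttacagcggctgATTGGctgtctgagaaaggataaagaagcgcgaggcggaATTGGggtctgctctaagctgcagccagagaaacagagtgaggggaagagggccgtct
Sox11: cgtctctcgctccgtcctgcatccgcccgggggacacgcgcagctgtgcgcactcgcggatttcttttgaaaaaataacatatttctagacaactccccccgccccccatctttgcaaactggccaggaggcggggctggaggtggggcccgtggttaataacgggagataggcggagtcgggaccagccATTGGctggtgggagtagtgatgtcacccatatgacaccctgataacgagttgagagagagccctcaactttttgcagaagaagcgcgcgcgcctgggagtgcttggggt
The Sox4 window holds 4 CCAAT matches and the Sox11 window holds 1. At least 1 match is present in 37.4% of 32851 windows of this length, and at least 4 are present in 1.06%. The first letters of the Sox4 matches lie 171, 104, 47 and 8 bases before the start site, and that of the Sox11 match 60 bases before it. Neither window holds ACAAT, the core that SOX proteins bind (31% of windows on either strand), its longer form AACAAT (10.7%), which contains it, AGAACA, the half-site of steroid receptors such as the progesterone receptor (19%) or TATAAA (13.6%). The GC content was 52% for Sox4 and 58.7% for Sox11. These are matches of letters in a short window and no measure of binding.

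At 76 h, Sox4, Sox9 and Sox10 rose with progesterone, Sox18 fell, and Sox17 was not called. With limma over all genes (Benjamini-Hochberg adjusted p under 0.05), 3 of the 6 members were called higher and 1 lower at that time, where 11.1% of 12352 genes were called higher and 6.7% lower. Before 76 h only Sox4 was called among the 5 tested members, by 1 of its 5 tested probe sets. It was called at 16 h, where 0.105% of genes were called higher and 0.202% lower, and at 28 h, where 1.94% were called higher and 0.591% lower. At 4 h limma called none of the 5 (0.13% of genes higher and 0.0567% lower), while at an unadjusted p under 0.05 there was 1 higher member (Sox4) and 1 lower (Sox18). The plot of intensities by array shows all 6 genes.

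**Figure D1:**
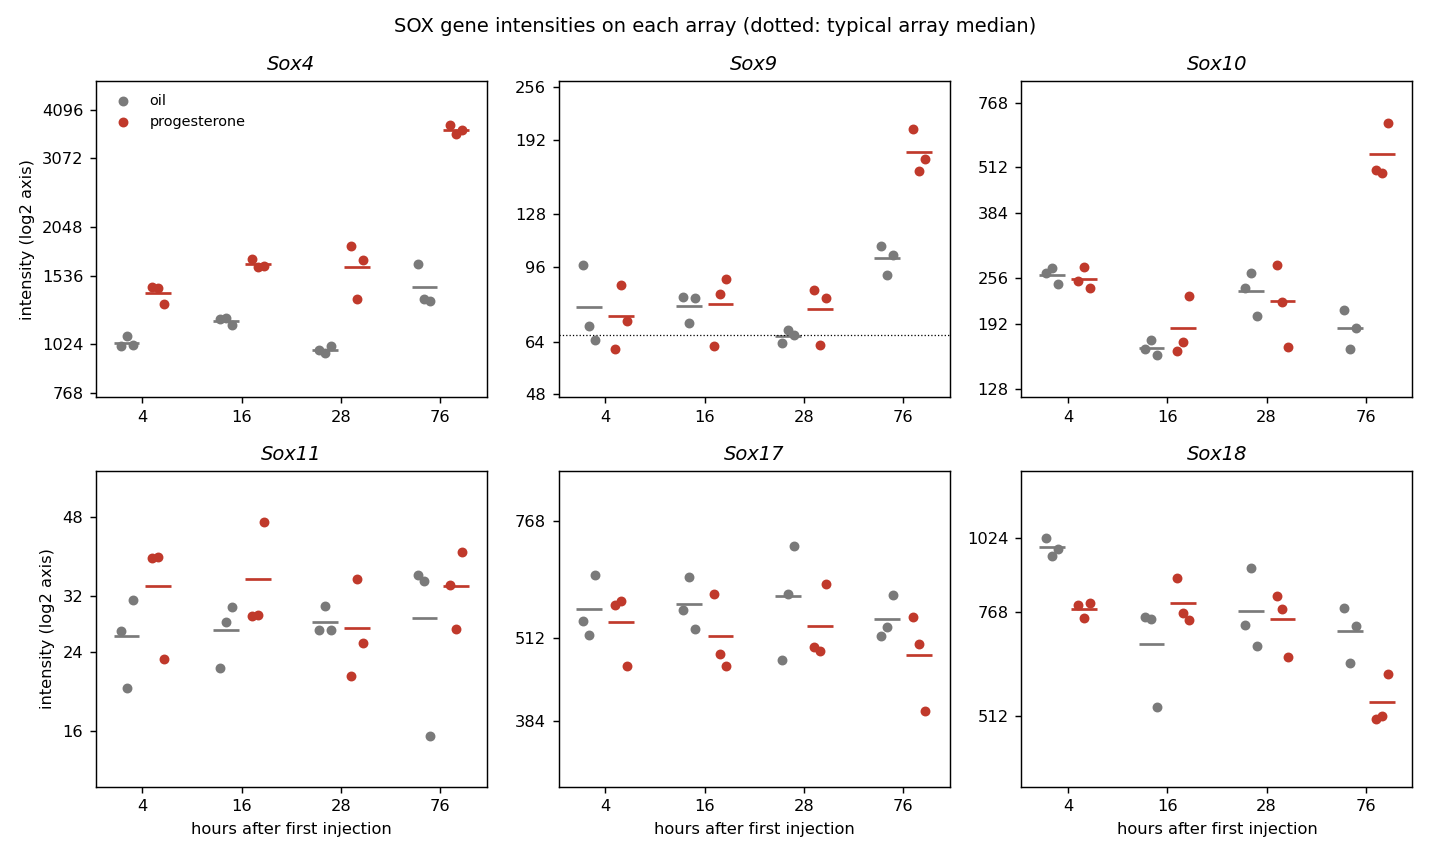
Intensity of each SOX gene on each of 24 arrays (vertical axis, log2 scale, with its own range for each gene) by hours after the first injection (horizontal axis, evenly spaced). Grey points are oil arrays, red points progesterone arrays, bars the mean of 3 arrays and the dotted line, in range only for Sox9, the typical array median. The progesterone arrays of 76 h stand above all 21 other arrays for Sox4, Sox9 and Sox10. The share of all genes with such a gap was not determined.

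Sox4, a group C factor, was the member whose progesterone arrays lay above the oil arrays of the same hour at all 4 times. At 4 h its intensity was 1011, 1072 and 1016 on the oil arrays and 1433, 1430 and 1295 with progesterone. At 16 h it was 1189, 1194 and 1146 in oil and 1698, 1614 and 1622 with progesterone. The groups were apart at both times, by more than the spread within either. At 28 h the oil arrays read 991, 973 and 1012 and the progesterone arrays 1829, 1337 and 1688, with 1 progesterone array clearly lower than the other two. At 76 h the oil arrays read 1641, 1336 and 1323 and the progesterone arrays 3731, 3541 and 3637. The lowest of these 3 progesterone arrays lay above all 21 other arrays, whose highest value was 1829. The share of all genes with such a gap was not determined. Progesterone and oil groups of the same hour that do not overlap were common: 19%, 17.1%, 12% and 44.7% of genes at these hours.

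As log2 differences with their SE from limma, Sox4 stood at 0.42 ± 0.09 at 4 h (1.34-fold, adjusted p = 0.0641). It was 0.48 ± 0.09 at 16 h (1.40-fold, adjusted p = 0.0167), 0.69 ± 0.09 at 28 h (1.62-fold, adjusted p = 7.21e-05) and 1.35 ± 0.09 at 76 h (2.55-fold, adjusted p = 6.55e-10). In either direction, limma called 0.186%, 0.308%, 2.53% and 17.8% of all genes at these times. Over the mean of the 4 differences Sox4 stood at 0.74 (adjusted p = 3.87e-10) and Sox10 at 0.40 (0.00206), the 2 members called there, where 12.5% of genes were called, 5.83% higher and 6.63% lower. The 4 h difference missed the threshold. It came from 1 probe set: the other 4 of Sox4 that passed the filter read 0.01, 0.15, 0.31 and -0.19, and the mean of all its probe sets gave 0.0058 (adjusted p = 0.993). For the probe set in use it passed with quantile normalization (adjusted p = 0.0149), with array weights (0.000369, where 22.4% of all genes were called), with the epithelial score as a covariate (0.00369), and without any one of progesterone 4 h replicate 3, progesterone 28 h replicates 1 and 2 or oil 76 h replicate 1. Its adjusted p ranged from 0.00896 to 0.420 when single arrays were left out. The 16 h call was lost without any one of oil 16 h replicates 1, 2 and 3 and progesterone 16 h replicates 2 and 3, at limma adjusted p up to 0.0979, and in a fit to the 6 arrays of that hour (0.0688). The 28 h and 76 h calls remained without any single array.

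The Sox4 difference itself was larger at 76 h than before, and a moderated F-test called a change between times for Sox4 and Sox10 among the 5 members and for 10% of genes. It was larger at 76 h than at 4 h by 0.93 ± 0.13 (limma adjusted p = 6.53e-05, where 8.04% of genes were called), than at 16 h by 0.87 ± 0.13 (0.000113, 11.1% of genes) and than at 28 h by 0.66 ± 0.13 (0.0022, 7.64% of genes). The oil arrays moved too: a moderated F-test over the 4 oil groups gave an adjusted p of 0.00193 for Sox4, and such a change was called for 12.2% of genes. The 28 h oil arrays were the lowest oil group, at a log2 difference of -0.28 ± 0.08 from the oil arrays of the other times (adjusted p = 0.0253, 7.6% of genes called). Set against oil at the 3 other times, Sox4 at 28 h was higher by 0.42 ± 0.08 (adjusted p = 0.00453, 0.874% of genes called), beside 0.69 with its own controls. The same comparison gave 0.22 at 4 h (adjusted p = 0.0738, 6.51% of genes called), 0.54 at 16 h (0.000538, 4.53%) and 1.77 at 76 h (7.42e-14, 32.6%, of which 16.9% higher and 15.7% lower).

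By level, the 8 groups of Sox4 ran from 3636 ± 95.5 (mean ± SD, n = 3) with progesterone at 76 h through 1645 ± 46.3 and 1618 ± 253 with progesterone at 16 h and 28 h, 1433 ± 179.7 in oil at 76 h, 1386 ± 79.1 with progesterone at 4 h and 1176 ± 26.1 in oil at 16 h to 1033 ± 33.8 and 992 ± 19.5 in oil at 4 h and 28 h. From the second to the fifth place neighbours overlapped array by array, as did the last pair. Of its 8 probe sets, 5 passed the filter and all 5 were called higher at 76 h in a fit to probe sets, by 1.35 to 1.68 on the log2 scale. The probe set in use, the brightest, gave the smallest of these 5 values. At 16 h and 28 h it was the 1 Sox4 probe set of the 5 that was called. The other 4 read 0.57 to 0.73 at 16 h (limma adjusted p from 0.148 to 0.397) and 0.61 to 0.70 at 28 h (0.119 to 0.665), with SE from 0.19 to 0.42 against 0.09. The other 3 were above the array median on no array.

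**Figure D2:**
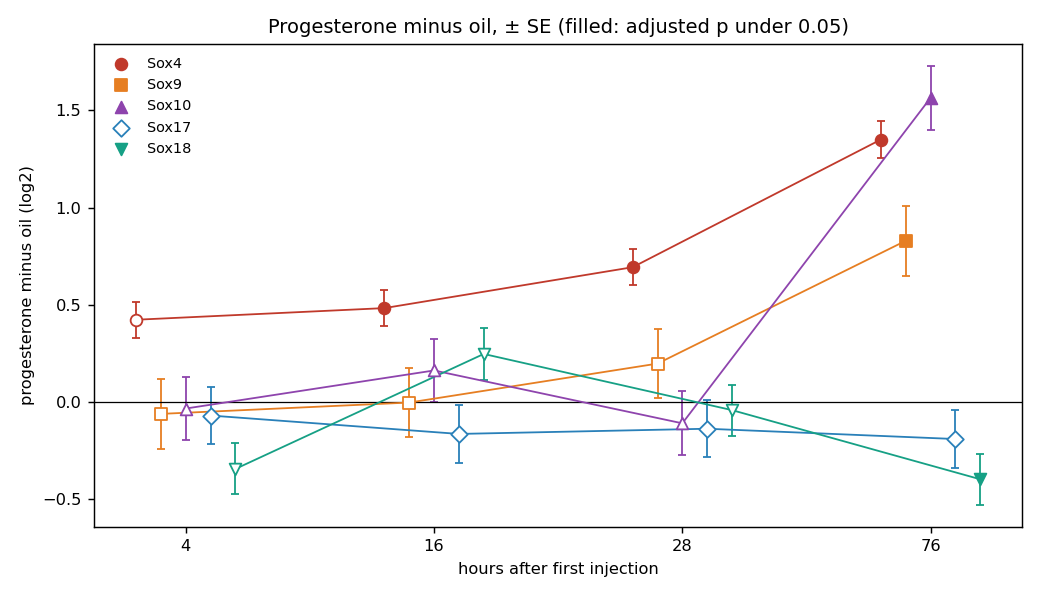
Log2 difference between progesterone and oil arrays of the same hour (vertical axis, ± SE from the limma fit) for the 5 tested SOX genes by hours after the first injection (horizontal axis, evenly spaced). Filled symbols have an adjusted p under 0.05. Sox4 is above 0 at every time, Sox9 and Sox10 leave 0 at 76 h only, and Sox18 is below 0 at 4 h and 76 h.

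Sox9 and Sox10, the group E factors, were called at 76 h and at no earlier time. Sox10 read 210.4, 164 and 187 on the 76 h oil arrays and 504, 493 and 676 with progesterone. All 3 of the progesterone arrays lay above the other 21 arrays, which ran from 158 to 278. How many of all genes had such a gap was not determined. The log2 difference was 1.56 ± 0.16 (2.96-fold, limma adjusted p = 3.29e-07). Earlier differences of Sox10, in order of time, were -0.03, 0.16 and -0.11, with 95% intervals of -0.37 to 0.31, -0.18 to 0.50 and -0.45 to 0.23 and adjusted p from 0.605 to 0.960. The oil arrays of Sox10 differed between times (F-test adjusted p = 0.0273), from 166 ± 7.91 at 16 h to 261 ± 13.6 at 4 h. The 16 h and 4 h oil arrays did not overlap, so that its level in oil varied by more than the spread within those groups. The 76 h difference exceeded that at 4 h by 1.60 ± 0.23, that at 16 h by 1.40 ± 0.23 and that at 28 h by 1.67 ± 0.23 (limma adjusted p of 8.53e-05, 0.000271 and 8.49e-05). A second probe set of Sox10, above the median on all 24 arrays, rose by 0.64 ± 0.15 at 76 h (adjusted p = 0.00381), less than that in use.

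Sox9 was dim, close to the median of its arrays. On the 76 h arrays it read 108, 92.1 and 103 in oil and 204, 162 and 173 with progesterone, and the groups were apart. On the other 18 arrays it ranged from 61.4 to 97.0, and those groups overlapped at each hour. The log2 difference at 76 h was 0.83 ± 0.18 (1.78-fold, limma adjusted p = 0.0019). At 4, 16 and 28 h it was -0.06, -0.00231 and 0.20, with adjusted p from 0.790 to 0.996. The 76 h difference was larger than that at 4 h (by 0.89 ± 0.25, adjusted p = 0.0301) and at 16 h (by 0.83 ± 0.25, adjusted p = 0.0357). Its excess over 28 h was 0.63 ± 0.25 (adjusted p = 0.147). Over all 4 times the F-test did not call Sox9 (adjusted p = 0.0625). Another probe set of Sox9 read 1.07 ± 0.19 at 76 h, but it passed the filter only through the 3 progesterone arrays of 76 h, and so had to differ. The third was above the median on no array.

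Of Sox17 and Sox18, the group F factors, Sox18 was called lower at 76 h and Sox17 was called at no time. Sox18 read 778, 629.9 and 725 on the 76 h oil arrays and 505, 512 and 602 with progesterone. The groups were apart by a small gap, between 629.9 and 602. The log2 difference was -0.40 ± 0.13 (1.32-fold lower, limma adjusted p = 0.0382). This call was lost with no filter (0.0591), with a variance without intensity trend (0.0518), and without any one of oil 76 h replicates 1 and 3 and progesterone 76 h replicates 1 and 2 (adjusted p up to 0.162). With oil of the 3 other times as controls the 76 h difference was -0.56 ± 0.11 (adjusted p = 0.000287).

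At 4 h Sox18 read 1023, 955 and 982 in oil and 787, 750.5 and 795 with progesterone. These groups did not overlap either, but the log2 difference of -0.34 ± 0.13 was not called (adjusted p = 0.258). The 4 h oil arrays were the highest of all 8 groups for Sox18 and overlapped no other group, and the oil level changed between times (F-test adjusted p = 0.0231). With those other controls, Sox18 at 4 h stood at 0.13 (adjusted p = 0.510), with the sign turned. At 16 h and 28 h its differences were 0.25 (adjusted p = 0.322) and -0.04 (0.970). The difference at 76 h was below that at 16 h by -0.64 ± 0.19 (adjusted p = 0.0265), and the other contrasts between times were not called.

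Sox17 read 516, 532 and 594 on the 76 h oil arrays and 551, 501 and 398 with progesterone. The groups overlapped at this and at every other time. Its log2 differences were -0.07, -0.16, -0.14 and -0.19 at 4, 16, 28 and 76 h, with limma adjusted p from 0.428 to 0.890. The 95% interval at 76 h ran from -0.50 to 0.12, which leaves room for a fall as large as that of Sox18. With oil of the other times as controls the 76 h difference was -0.26 ± 0.12 (95% interval -0.51 to -0.01, limma adjusted p = 0.102). A second Sox17 probe set read -0.08 at 76 h.

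Sox11, the other group C factor, lay under the array median on all 24 arrays with all 6 of its probe sets. Its brightest probe set ranged from 15.7 to 46.7. On the 76 h arrays it read 35.5, 34.5 and 15.7 in oil and 33.8, 27.0 and 40.2 with progesterone, and the groups overlapped at every time. In the fit without a filter the 76 h difference was 0.31 ± 0.30 (adjusted p = 0.618). These intensities do not tell a low level of Sox11 from background.

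**Figure D3:**
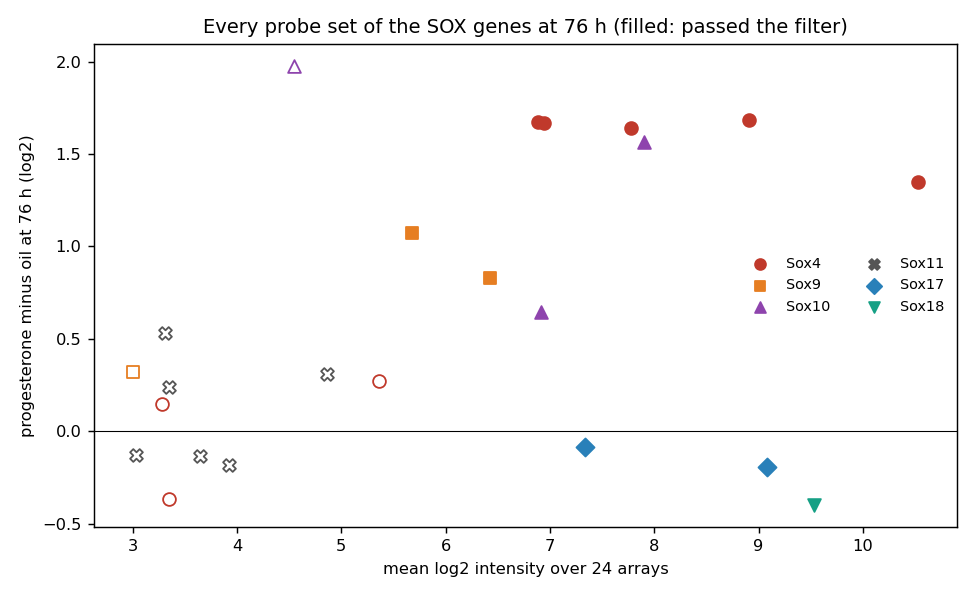
All 23 probe sets of the 6 SOX genes, with the mean log2 intensity over 24 arrays (horizontal axis) against the log2 difference between progesterone and oil at 76 h (vertical axis). Filled symbols are the 12 probe sets that passed the filter, 1 of them, for Sox9, only through the progesterone arrays of 76 h. The 5 filled Sox4 probe sets lie between 1.35 and 1.68.

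The arrays carried RNA of the whole gland, so that more cells of a type and more RNA per cell cannot be told apart. Beside the marker counts that follow, limma called 0.13%, 0.105%, 1.94% and 11.1% of all genes higher at 4, 16, 28 and 76 h. It called 0.0567%, 0.202%, 0.591% and 6.7% of them lower. Among lists of cell type markers, the luminal epithelial list, cells that line the duct, had 0 of 15 tested members called at 4, 16 and 28 h and 14 called higher at 76 h, with a median log2 difference of 1.44 beside 0.02 for all genes. Its summed intensity was 7435 to 9210 on the 76 h oil arrays and 19992 to 22647 with progesterone. The ETS factor Ehf (2.66), the claudin Cldn7 (2.07) and the keratins Krt8 (1.90) and Krt19 (1.75) rose most. The basal list, the contractile outer layer, had 3 of 14 members called higher at 16 h, 4 at 28 h and 11 at 76 h (median 0.95), none of them lower. Krt15 rose by 3.26 at 76 h, Trp63, the p63 factor of basal cells, by 2.65, Krt17 by 2.07 and Krt5 by 1.94. Its summed intensity was 9730 to 10709 in oil and 15606 to 16701 with progesterone at 76 h. Sox4, Sox9 and Sox10 at 1.35, 0.83 and 1.56 thus lay within the range of these epithelial markers at 76 h. They also lay within that of the proliferation markers (0.38 to 2.00). At 16 h and 28 h Sox4 was called, as were 3 and 4 basal markers, while no luminal marker was. A call does not rank sizes, since the luminal marker Cldn3 read 0.78 at 16 h (limma adjusted p = 0.0683) beside 0.48 for Sox4. The part of these cells in the early Sox4 difference was not tested.

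With the mean log2 level of the 29 tested luminal and basal markers as a covariate, no SOX member was called at 76 h. There Sox4 stood at 0.66 ± 0.21 (limma adjusted p = 0.215), Sox10 at 0.92 ± 0.44 (0.571), Sox9 at -0.073 ± 0.47 (0.987) and Sox18 at -0.78 ± 0.36 (0.547). Of all genes 0.818% were called in that fit, against 17.8% without the covariate. The score of the 76 h progesterone arrays, 9.41 to 9.65, lay above that of the other 21 arrays (8.04 to 8.92), without overlap, so that at 76 h score and group are nearly inseparable. In the same fit Sox4 was called higher at 4 h (0.46 ± 0.08, adjusted p = 0.00369, 0.405% of genes called), at 16 h (0.38 ± 0.08, 0.0404, 0.397%) and at 28 h (0.50 ± 0.09, 0.00655, 0.712%).

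**Figure D4:**
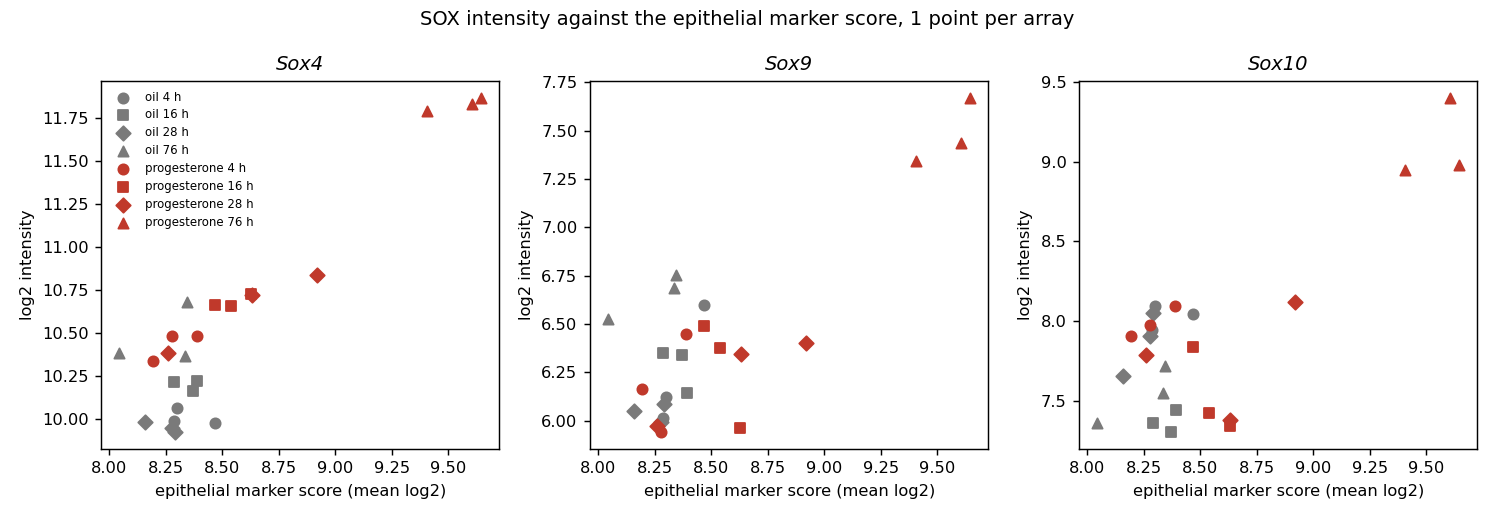
Log2 intensity of Sox4, Sox9 and Sox10 (vertical axes) against the mean log2 level of 29 luminal and basal markers (horizontal axis), 1 point per array, grey for oil and red for progesterone, with a symbol for each hour. The 3 progesterone arrays of 76 h (red triangles) stand apart on both axes, at scores of 9.41 to 9.65.

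The Schwann cell list, the other known site of Sox10 in such tissue, had 0 of 8 tested members called at 76 h (median -0.14), and its summed intensity was 1697 to 2161 with progesterone and 2066 to 2229 in oil. Sox10 rose while none of these markers was called. Mbp, the myelin basic protein and also a known Sox10 target, ranged from 1017 to 1919 over the 24 arrays, and Foxd3 was above the median on no array. The lymphocyte list, cells in which Sox4 is known, had 0 of 7 tested members higher and 3 lower at 76 h (median -0.47), among them the B cell genes Cd79b (-0.59) and Ms4a1 (-0.52) and the T cell gene Cd2 (-0.49). Proliferation markers were higher at 76 h in 10 of 11 tested (median 1.43) and lower at 28 h in 2, and fibroblast and matrix markers were higher in 7 of 10 at 28 h and in 7 of 10 at 76 h. Of 8 adipocyte markers 1 fell at 76 h, and none of 10 skeletal muscle markers was called at any time. Beside these counts, 11.1% of all genes were called higher and 6.7% lower at 76 h. At 28 h 1.94% were called higher and 0.591% lower. The part of these lists in the SOX differences was not tested.

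The endothelial list had 0 of 18 members called at 4, 16 and 28 h, and 6 lower and 0 higher at 76 h, with a median of -0.34. Over all genes limma called 0.186%, 0.308% and 2.53% at 4, 16 and 28 h. At 76 h it called 6.7% lower and 11.1% higher. The receptor Robo4 fell by 0.54 (log2 -0.54), Mmrn2 by 0.49, VE-cadherin, Cdh5, by 0.47 and the angiopoietin receptor Tek by 0.39. Summed intensity was 12612 to 13374 in oil and 10048 to 11648 with progesterone, without overlap. Sox18 at -0.40 and Sox17 at -0.19 lay within the range of this list, from -0.54 to 0.10. Such values were not particular to it. Sox18 also lay within the range of the lymphocyte list (-0.59 to -0.31), and Sox17 within that of the Schwann cell list (-0.35 to 0.15). With the mean endothelial level as a covariate Sox18 stood at -0.14 ± 0.16 at 76 h (limma adjusted p = 0.572) and Sox17 at -0.37 ± 0.19 (0.192). In that fit Sox4 (1.41 ± 0.12), Sox9 (0.80 ± 0.24) and Sox10 (1.72 ± 0.22) were still called higher, where 16.1% of all genes were called at 76 h. The score of the 76 h progesterone arrays, 8.89 to 9.10, reached below that of the other 21 arrays (8.95 to 9.46). Score and group are thus partly inseparable here too. Of 5 tested lymphatic markers 2 rose at 76 h, Reln by 1.44 and Pdpn by 0.53, genes that other cells of the gland can also express, and the median was -0.20.

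**Figure D5:**
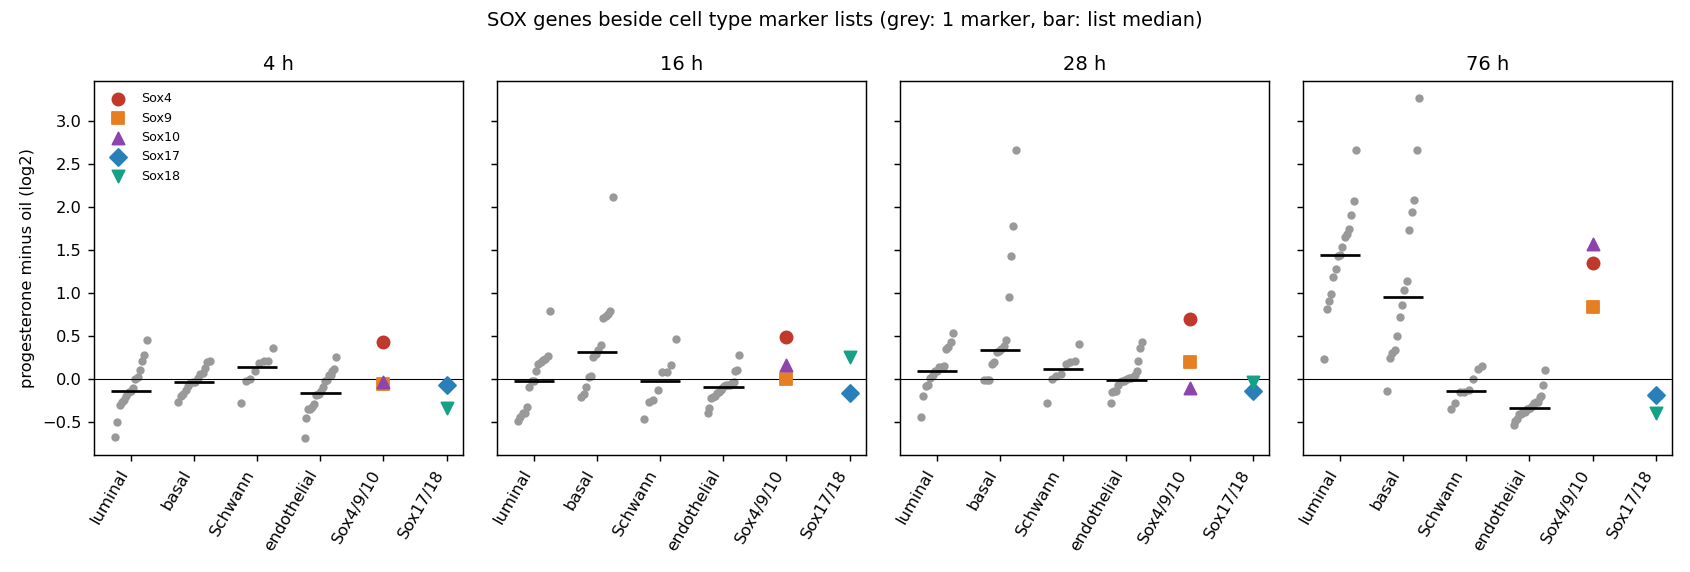
Log2 difference between progesterone and oil (vertical axis) at each hour (panels) for markers of 4 cell types (grey points, 1 per gene, with bars at list medians) and for the SOX genes (coloured symbols). At 76 h Sox4, Sox9 and Sox10 lie among the epithelial markers, whose medians are 1.44 and 0.95, and Sox17 and Sox18 among the endothelial markers, whose median is -0.34.

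The division into epithelial and endothelial members was also set against the spread between arrays of the same group. Deviations from the group means were correlated over the 24 arrays for all pairs of the 5 tested members and for each member with 4 marker lists, 30 relations in all, with permutation of arrays within groups. None reached an adjusted p under 0.05, and the lowest adjusted p for Pearson's r was 0.213. Sox18 had r = 0.52 and rho = 0.47 with the endothelial list (permutation p = 0.0809 and 0.0856, adjusted p = 0.485 and 0.335, and r = 0.41 without the 2 most distant arrays). Sox17 had r = -0.32 and rho = -0.15 with that list (permutation p = 0.295 and 0.588, adjusted p = 0.582 and 0.840, and r = -0.02 without those arrays). Sox17 and Sox18 had r = -0.11 and rho = -0.07 with each other (permutation p = 0.688 and 0.793, adjusted p = 0.843 and 0.845, and r = -0.07). Sox4 had r = 0.77 and rho = 0.55 with the luminal list (permutation p = 0.0143 and 0.0411, adjusted p = 0.213 and 0.308, and r = 0.67), and Sox9 r = 0.54 and rho = 0.57 with the basal list (permutation p = 0.0194 and 0.0233, adjusted p = 0.213 and 0.308, and r = 0.54). Across the division, Sox10 had r = 0.53 and rho = 0.51 with Sox18 (permutation p = 0.0213 and 0.0407, adjusted p = 0.213 and 0.308, and r = 0.43) and r = -0.55 and rho = -0.55 with Sox17 (permutation p = 0.0386 and 0.0354, adjusted p = 0.290 and 0.308, and r = -0.49). These last 4 were the relations with an unadjusted p under 0.05 for r. Within groups, Sox17 thus showed no positive correlation with the endothelial list or with Sox18.

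Among 12352 genes, those whose log2 values over the 24 arrays were most like Sox4 were Serpinb5, the protease inhibitor maspin (r = 0.96), the calcium channel Cacna1g (0.95) and Krt15 (0.95). Their deviations from group means correlated with those of Sox4 at 0.71, 0.62 and 0.39. Most like Sox9 were the fibrillin Fbn2 (r = 0.90, deviations 0.37), the small GTPase Rhov (0.90, 0.70) and the gene model Gm16136 (0.89, 0.35). Most like Sox10 were the homeobox factor Lmx1b (0.93, 0.67), the corepressor Ctbp2 (0.92, 0.67) and the ubiquitin ligase Rnf149 (0.89, 0.28). For Sox18 they were Gpx3, a secreted glutathione peroxidase (0.90, 0.82), the translation inhibitor Eif4ebp1 (0.86, 0.68) and the carnitine acetyltransferase Crat (0.86, 0.67). Sox17 had no gene above 0.76, the value of Fam117b and of the ubiquitin ligase Marchf3, followed by Kyat3 (0.74). These are descriptions over 24 arrays that share 8 groups. The 9 genes named for Sox4, Sox9 and Sox10 were all called higher at 76 h, beside 11.1% of all genes. They were chosen for likeness, over these same arrays, to members that stood highest with progesterone at 76 h. Their calls thus largely follow from the choice.

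Of 13 other SOX genes on the array 6 passed the filter, and none was called at 4, 16 or 28 h. At 76 h the group C gene Sox12 rose from 74.4 ± 3.42 to 129 ± 7.98 (0.79 on the log2 scale, limma adjusted p = 0.000467) and the group F gene Sox7, known from endothelium, fell from 245 ± 32.7 to 182 ± 4.41 (log2 -0.42, adjusted p = 0.0408). Of all genes 11.1% were called higher and 6.7% lower at that time. The other 4 tested genes were Sox3 (0.26), Sox6 (-0.000492), Sox13 (0.37, adjusted p = 0.0519) and Sox21 (0.15). Sox8, the third gene of group E, lay under the array median on all arrays.

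Among 25 genes known as targets or partners of SOX factors 15 were tested. At 76 h 5 of the 15 rose and 1 fell, beside a list median of 0.05. Of all 12352 genes 11.1% were called higher and 6.7% lower at that time. Snai2, the Slug factor that works with Sox9 in mammary cells, rose from 340 ± 17.0 to 802 ± 156 (1.22, limma adjusted p = 5.11e-06). Erbb3, a receptor that Sox10 is known to control in neural crest, rose from 452 ± 36.3 to 1473 ± 132 (1.70), and it is also made by mammary epithelium. Mia, another known Sox10 target, rose from 42.2 ± 0.552 to 179 ± 23.0 (2.08). It was above the array median on 5 arrays only, the 3 progesterone arrays of 76 h among them. Without those 3 arrays Mia would have failed the filter, so the filter itself favoured its place among the 5 that rose. Ezh2 (0.60) and Tead1 (0.67), named after their values had been seen, were the other 2 that rose. The endothelial claudin Cldn5, a known Sox18 target, fell from 931 ± 206 to 577 ± 149 (-0.70, adjusted p = 0.0241). At 28 h the semaphorin Sema3c rose (0.87) and the adhesion molecule Vcam1 fell (-0.62), where 1.94% of all genes were called higher and 0.591% lower. Prox1, the lymphatic factor downstream of Sox18, and the cartilage genes Col2a1, Hapln1, Matn1 and Comp, under Sox9 in cartilage, were above the median on no array. Other cartilage genes of the list were brighter: Col9a1 was above the median on 24 arrays, Col11a2 on 18 and Acan on 1. Col9a1 (-0.06 at 76 h) and Col11a2 (0.12) were tested and called at no time.

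As a check of treatment, Pgr, the progesterone receptor gene, read 464 ± 46.6 in oil and 85.5 ± 15.6 with progesterone at 4 h (log2 -2.45, limma adjusted p = 2.02e-07), and 279 ± 43.2 and 279 ± 29.7 at 76 h. Wnt4, a ligand made by hormone-sensing cells, was 1.99-fold, 2.52-fold, 2.42-fold and 4.65-fold higher at 4, 16, 28 and 76 h, of which the first did not pass (adjusted p = 0.0688). Array medians lay between 62.8 and 70.2.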

How the data were processed

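Total RNA of mammary glands was labelled with biotin in one cycle and put on Affymetrix mouse arrays, per the protocols in the labels. The authors deposited linear intensity values for 45101 probe sets on 24 arrays, and the software behind them, like their normalization, was not given in the sources used here. Values under the 10th percentile of the table (7.38) were raised to it and log2 was taken, and the 64 control probe sets were left out. Gene names came from the 2016 platform annotation, and only probe sets with 1 symbol were used. A probe set had to exceed its array's median on at least 3 arrays, and the brightest such probe set stood for its gene, which left 12352 genes. With no such probe set, the brightest of all was read.

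All 24 arrays were fitted in limma 3.58.1 (R 4.3.3) with a mean per group, 16 residual degrees of freedom, an intensity trend in the variance and Benjamini-Hochberg adjustment over all genes. Tests are two-sided. Intensities carry SD over 3 arrays and log2 differences SE from the model. Correlations were tested with 100000 permutations. The fit was tested on simulated data. The members, the 12 other lists and the alternatives (filters, floors, scaling, probe sets, variance, weights, arrays of 1 hour, replicate block, other controls, marker scores as covariates, thresholds, leaving out arrays) were chosen with earlier results of these data known. Of each list up to 4 called genes per time are named, those with the largest change, with Pgr, Wnt4 and the 3 genes most like each member. Other genes were named after their values had been seen. Same-numbered progesterone and oil arrays of a time share only a number. No batch labels or scan dates were used here. Sequences come from RefSeq.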

Additional observations from a re-analysis of the deposited data

Results flagged for a closer look

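The difference between progesterone and oil was not the same at all 4 times for 2 SOX genes. For Sox4 the moderated F-test gave an adjusted p of 0.000113, and its difference was above 0 at each time and largest at 76 h (1.35). For Sox10 the F-test gave an adjusted p of 6.46e-05, with differences of -0.03, 0.16, -0.11 and 1.56 at 4, 16, 28 and 76 h. Such a change between times was called for 10% of all genes tested. On the 76 h progesterone arrays the luminal marker list was higher as well (median 1.44). With the epithelial score as a covariate neither gene was called for such a change. That score was 9.41 to 9.65 on those arrays and 8.04 to 8.92 on the other 21. Score and group are thus nearly inseparable at 76 h, and this fit cannot tell them apart.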

How the results depend on the processing

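The number of SOX members called at 28 h was 1 in every alternative run that counted members. These counts leave out the other probe sets of Sox4, the member called there. Those that passed the filter, read alone, were not called at 28 h (limma adjusted p from 0.119 to 0.665). At 4 h the count rose from 0 to 1 with quantile normalization, the replicate block, the epithelial score as a covariate or an adjusted p under 0.10, and to 2 with array weights. At 16 h it went from 1 to 0 with the mean of all probe sets of a gene, the 6 arrays of that time only or an adjusted p under 0.01, and to 2 with array weights. At 76 h it went from 4 to 0 with the epithelial score as a covariate, and to 3 with no filter, a variance without intensity trend, the endothelial score or an adjusted p under 0.01. Array weights called 22.4%, 59.4%, 13.1% and 39.1% of all genes at the 4 times. Members whose difference changed between times were 4 in place of 2 with array weights or an adjusted p under 0.10, and 0 with the epithelial score. Members whose oil level changed between times were 1 in place of 3 at an adjusted p under 0.01. Members called over the 4 times together were 5 in place of 2 with array weights and 1 with the epithelial score. The cause of these changes was not tested. When single arrays were left out, the counts ranged from 0 to 1 at 4 h and at 16 h, from 3 to 4 at 76 h, from 2 to 3 for a change between times, from 1 to 3 for the oil level (1 without oil 4 h replicate 1 or 2) and from 2 to 3 over the times together. Of the differences called in the report, the direction turned for Sox9 at 76 h with the epithelial score (-0.073), and for Sox4 with the 2 dimmest of its probe sets, under the array median on all arrays (-0.061 and -0.30 at 28 h, and -0.36 at 76 h for 1 of them). Among differences not called, other signs turned too, among them those with oil of the other hours as controls for Sox10 (0.40, -0.28 and 0.12 at 4, 16 and 28 h), Sox9 at 28 h (-0.15) and Sox18 at 4 h (0.13) and 16 h (-0.03), and for Sox4 at 4 h with 1 other probe set that passed the filter (-0.19) and the 3 that did not (-0.37 to -0.13). With the replicate block the calls over all genes were 28, 33, 298 and 2148 at the 4 times, against 23, 38, 313 and 2195, and among the members only Sox4 at 4 h changed its call (adjusted p = 0.0481). Same-numbered arrays of a time correlated over 0.1 in 6 of 12 pairs (-0.02 to 0.35), and 7 of 12 progesterone arrays correlated best with their own number. Signal over background limits Sox11 and, near the array median, Sox9.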

Other observations

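The dimmest Sox10 probe set, above the array median on 2 arrays only and so not tested, read 14.3 in oil and 61.0 with progesterone at 76 h, a log2 difference of 1.98. The 5 other Sox11 probe sets gave log2 differences at 76 h between -0.18 and 0.53, all of them at intensities under the array median. Among oil arrays Sox9 was highest at 76 h (101 ± 8.0), but its oil groups were not called as different (limma F-test adjusted p = 0.0946).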
